A study of Mus musculus with 6 samples.

Results

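Expression of 8 genes around Txnip was examined in cultured mouse pancreatic buds treated with inhibitors of BET proteins. The 8 genes are the alpha-arrestin genes Txnip, Arrdc3 and Arrdc4, the glucose-responsive transcription factor genes Mlxip and Mlxipl, and the thioredoxin genes Txn1, Txn2 and Txnrd1. They were listed by name around Txnip, which was chosen by its higher intensity under JQ1 than in control buds, so its JQ1 values are a description and carry no test. All 8 were found among the 24010 named genes of the array, under the Entrez gene IDs 56338 (Txnip), 105171 (Arrdc3), 66412 (Arrdc4), 208104 (Mlxip), 58805 (Mlxipl), 22166 (Txn1), 56551 (Txn2) and 50493 (Txnrd1). Dorsal pancreatic buds were taken from E11.5 mouse embryos and cultured for 24 h, and each of the 6 arrays measured RNA from a pool of 10 buds. The control group (CTRL) had 0.1% DMSO, and the treated groups had I-BET151 at 500 nM or JQ1 at 100 nM, with 2 arrays in each group. The labels give no strain or genotype and leave unstated whether replicate pools had different litters or were cultured on different days. The p-values therefore refer to pool-to-pool spread alone, some of which may be technical.

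Txnip protein, the thioredoxin-interacting protein, binds reduced thioredoxin and blocks it. Like other alpha-arrestins it also brings membrane proteins to ubiquitin ligases of the NEDD4 family, and it lowers glucose uptake by promoting the internalisation of glucose transporters. Its transcription is driven by MondoA (encoded by Mlxip) and ChREBP (encoded by Mlxipl), which sense phosphorylated sugars, pair with Mlx and bind carbohydrate response elements, pairs of E-box-like sequences with a short spacer. Arrdc4 is a further target of these factors. In islets, Txnip is one of the genes most responsive to glucose and is linked to beta cell loss. Thioredoxin 1 in the cytosol and thioredoxin 2 in mitochondria reduce disulfides in other proteins, and thioredoxin reductase 1, a selenoprotein, restores the first of them with NADPH. BET proteins read histone acetylation through bromodomains and help release paused RNA polymerase; I-BET151 and JQ1 occupy the bromodomains.

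The promoters of Txnip and Arrdc4 are shown because these genes had the largest differences between JQ1 and control buds among the 8. The sequences are the 250 bases before the RefSeq transcript start in GRCm38.p6, on the strand of the gene: chr3:96557707-96557956, plus strand, for Txnip and chr7:68749239-68749488, minus strand, for Arrdc4. Capitals mark CCAAT or its reverse complement ATTGG, the E-box CACGTG, the E-box variant CACGAG and, in Txnip, the FoxO motif GTAAACA.
Txnip: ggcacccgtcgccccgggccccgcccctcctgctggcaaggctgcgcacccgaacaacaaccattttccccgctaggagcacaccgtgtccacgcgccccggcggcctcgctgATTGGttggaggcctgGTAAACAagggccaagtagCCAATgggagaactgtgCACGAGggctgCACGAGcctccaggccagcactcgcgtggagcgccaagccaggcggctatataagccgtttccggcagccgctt
Arrdc4: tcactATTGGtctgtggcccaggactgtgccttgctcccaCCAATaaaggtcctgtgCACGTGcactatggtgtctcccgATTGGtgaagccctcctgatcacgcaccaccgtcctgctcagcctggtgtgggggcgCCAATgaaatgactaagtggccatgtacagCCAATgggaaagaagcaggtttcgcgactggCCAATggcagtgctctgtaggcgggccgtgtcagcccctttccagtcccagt

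In Txnip, a pair of CACGAG copies lay from 85 to 69 bases before the start, separated by a 5-base spacer. This arrangement, CACGAG, any 5 bases and CACGAG again, searched on both strands, was found in 1 of 32851 RefSeq promoter windows of this length, the one of Txnip itself. These letters were chosen with the Txnip sequence and its known response element in view, so the count is a description. CACGAG alone was in 5.37% of windows, and 0.262% held at least 2 copies. Arrdc4 held 1 CACGTG, from 193 to 188 bases before the start, and 6.02% of all windows held that E-box. The first of the 2 Mlxipl starts also had a CACGTG and a CACGAG, and no window of Mlxip, Arrdc3, Txn1, Txn2 or Txnrd1 held either.

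CCAAT boxes, the binding motif of NF-Y, were counted on both strands. Arrdc4 had 6 and Txnip had 2; 33.8% of all windows held at least 1, 10.1% at least 2 and 0.0578% at least 6. Mlxip had 2, Txn2 had 1, and Txn1 had none. The FoxO motif GTAAACA was found in Txnip alone among the 8 genes, and in 3.17% of all windows. The core of the antioxidant response element, TGACNNNGC, bound by Nrf2, was in the Arrdc4 window, the second of 3 Txnrd1 windows and 10.2% of all windows. A match is a description of the letters and does not show binding. No motif overlapped another of those searched in the Txnip and Arrdc4 windows, apart from the CACGAG copies inside the pair.

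**Figure D1:**
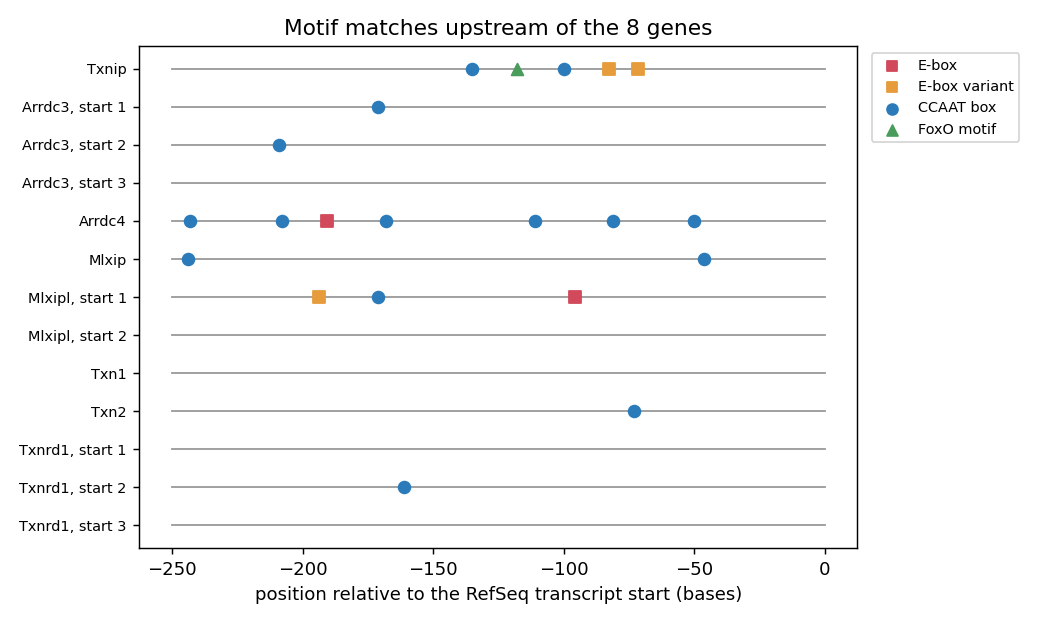
Positions of matches to E-boxes, E-box variants, CCAAT boxes and the FoxO motif in the 250 bases before each RefSeq start of the 8 genes, in bases relative to the start; each line is 1 start. The CACGAG pair of Txnip lies from 85 to 69 bases before the start, and Arrdc4 carries 6 CCAAT boxes.

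The arrays were alike in scale, with medians of 54 to 57 in the deposited intensities, and arrays of a group correlated at 0.9952 to 0.9963 across genes on the log2 scale. Arrays of I-BET151 and JQ1 correlated about as closely, at 0.9949 to 0.9958, and control with treated arrays at 0.9903 to 0.9927. Hexim1, whose product holds P-TEFb inactive and which is widely used as a marker of BET inhibition, stood at 640.5 ± 21.9 in control, 1017.5 ± 50.2 in I-BET151 and 1283.5 ± 29.0 in JQ1 buds (SD, n = 2). It rose under both compounds (limma adjusted p = 0.0432 and 0.0143). Of 6 pancreatic progenitor markers none was called under I-BET151 or JQ1, with summed intensities of 5394 to 5593, 5480 to 5729 and 5005 to 5379 in control, I-BET151 and JQ1 buds. Of 5 endocrine markers 1 rose under JQ1, and of 5 macrophage and 4 erythroid markers none was called. Of 6 mesenchyme markers 2 fell under I-BET151 and 3 under JQ1, with summed intensities of 5519 to 5684, 4022 to 4068 and 3692 to 3817 in control, I-BET151 and JQ1 buds. Of 6 endothelial markers 1 and 4 fell, with sums of 4951 to 5019, 3613 to 3864 and 3358 to 3441, and of 5 markers of neural crest and neurons 2 and 3 fell, with sums of 1817 to 1880, 813 to 966 and 772 to 827. The Hexim1 and marker calls were lost under both compounds when any single array was left out with all genes kept, and with only the 2 groups compared in the fit, since no gene of the array was then called against CTRL. No marker of these lists was at the lowest value of the table. In whole buds, fewer cells of a type and less RNA per cell cannot be told apart, and the part of these shifts in the results on the 8 genes was not tested.

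Txnip was higher in buds cultured with either compound. It measured 2345 and 2373 on the control arrays, 3117 and 3278 with I-BET151, and 3377 and 3426 with JQ1. The 3 groups did not overlap, in the order control, I-BET151, JQ1. Under JQ1, where Txnip was chosen, the mean was 1.44-fold that of controls, a log2 change of 0.53 ± 0.06 (SE, no test). Under I-BET151 it was 1.36-fold, with a log2 change of 0.44 ± 0.06 that just missed the threshold (limma adjusted p = 0.0557, unadjusted p = 0.000784). Both comparisons use the same 2 control arrays, so the second is not independent of the first.

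Whether Txnip was called under I-BET151 depended on the genes and scaling used. Among 22 alternatives the adjusted p ranged from 0.0126 to 0.245 while the log2 change stayed between 0.40 and 0.49. It passed in 8 of them, among them the fit without genes below the median intensity and the one with each array centred on its median. It passed in none of the 6 fits that left out 1 array and kept all genes.

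Arrdc4, which encodes an alpha-arrestin that also restrains glucose uptake, lay in the same order of groups. It measured 502 and 542 on the control arrays, 659 and 739 with I-BET151, and 781 and 795 with JQ1. All 4 treated arrays were above both controls, and both JQ1 arrays above both I-BET151 arrays. The log2 change was 0.60 ± 0.08 under JQ1 (1.51-fold) and 0.42 ± 0.08 under I-BET151 (1.34-fold, adjusted p = 0.104).

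Arrdc3, an alpha-arrestin best known for the traffic of beta-adrenergic receptors, differed far less. It measured 1153 and 1218 on control arrays, 1304 and 1272 with I-BET151, and 1338 and 1288 with JQ1. The treated arrays were again all above the controls, but the I-BET151 and JQ1 arrays overlapped. The log2 change was 0.12 ± 0.06 under I-BET151 (adjusted p = 0.391, 95% interval -0.04 to 0.28) and 0.15 ± 0.06 under JQ1.

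**Figure D2:**
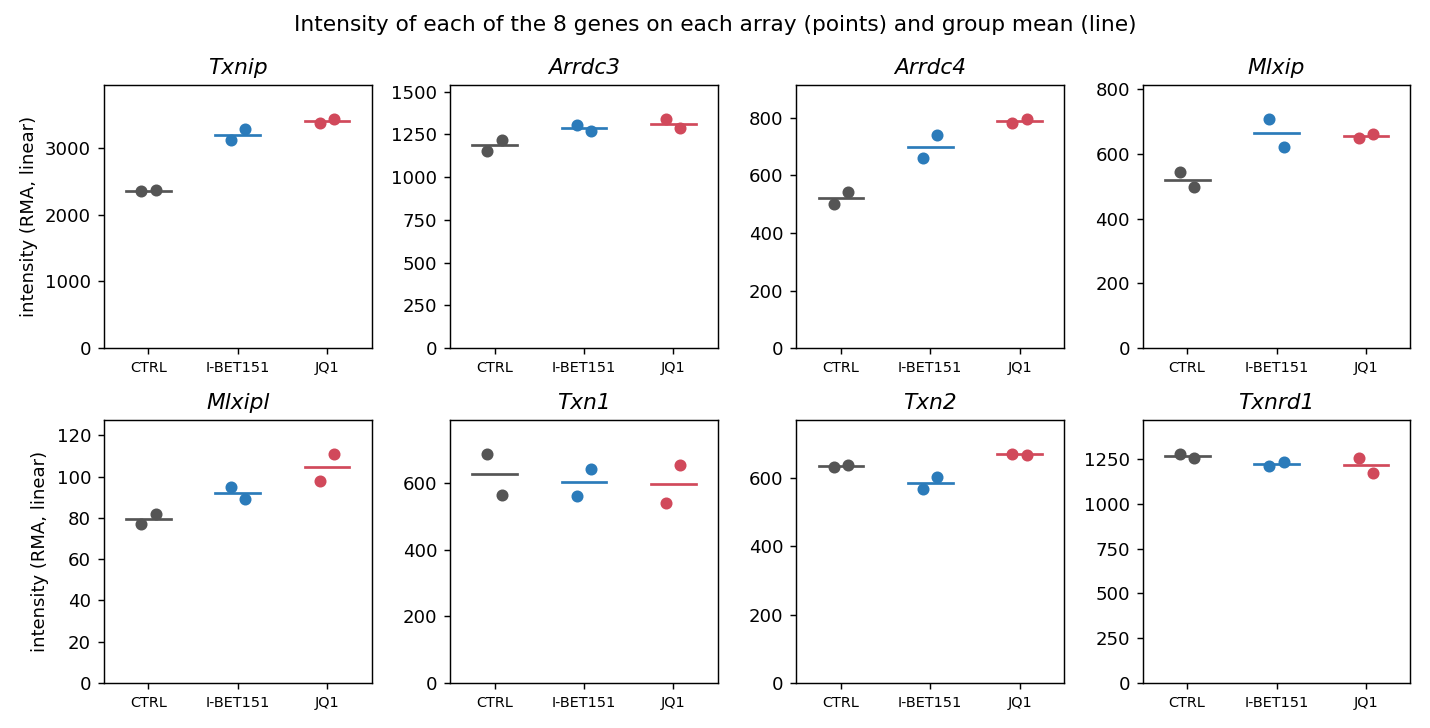
Deposited RMA intensity (linear, each panel from 0) of each of the 8 genes on each array; points are single arrays, 2 per group, and lines are group means. Txnip runs from 2345 to 2373 in controls and from 3117 to 3426 in treated buds, whereas the groups of Txn1 overlap.

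The glucose sensors upstream of Txnip were also higher on every treated array. Mlxip, encoding MondoA, measured 543 and 497 on control arrays, 707 and 621 with I-BET151, and 649 and 663 with JQ1. The treated groups overlapped each other, since the I-BET151 arrays enclosed the JQ1 arrays. The log2 change was 0.35 ± 0.09 under I-BET151 (1.28-fold, adjusted p = 0.152) and 0.34 ± 0.09 under JQ1 (1.26-fold). Mlxipl, encoding ChREBP, was dimmer, at 77 and 82 on control arrays, 95 and 89 with I-BET151, and 98 and 111 with JQ1. Its groups did not overlap. The log2 change was 0.21 ± 0.09 under I-BET151 (1.16-fold, adjusted p = 0.302) and 0.39 ± 0.09 under JQ1 (1.31-fold).

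Thioredoxin genes had small changes. Under I-BET151 the log2 changes of all 3 were negative and not called, and under JQ1 only that of Txn2 was positive. Txn1 measured 688 and 566 on control arrays, 563 and 642 with I-BET151, and 541 and 654 with JQ1, so that all 3 groups overlapped. Its spread was the widest of the 8 genes, with log2 changes of -0.05 ± 0.15 under I-BET151 (adjusted p = 0.893, 95% interval -0.45 to 0.34) and -0.07 ± 0.15 under JQ1. The I-BET151 interval leaves out a rise as large as the 0.44 of Txnip, but not a fall of that size. Txnrd1 measured 1279 and 1254 on control arrays, 1214 and 1233 with I-BET151, and 1259 and 1174 with JQ1. The I-BET151 arrays were below both controls and the JQ1 arrays overlapped them, with log2 changes of -0.05 ± 0.06 (adjusted p = 0.722, 95% interval -0.21 to 0.11) and -0.06 ± 0.06, the second of which turned to 0.01 with each array centred on its median.

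Txn2, the mitochondrial thioredoxin gene, was the one gene of the 8 whose arrays lay on opposite sides of the controls. It measured 634 and 639 on control arrays, 568 and 605 with I-BET151, and 671 and 669 with JQ1. The log2 change was -0.12 ± 0.06 under I-BET151 (adjusted p = 0.382, 95% interval -0.28 to 0.04) and 0.07 ± 0.06 under JQ1. Taken singly, both I-BET151 arrays lay below both controls for 20.7% of all genes, and both JQ1 arrays above them for 23.9%. The share of genes with both placements was not counted, so nothing is read from this one.

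Counted over the 8 genes, none was called under I-BET151 by limma at an adjusted p under 0.05, where 1.13% of all genes were called, 0.262% higher and 0.87% lower. At an unadjusted p under 0.05 there were 3 of 8 (Txnip, Arrdc4 and Mlxip), all higher, against 18.9% of all genes in either direction and 8.84% higher. Under JQ1, 2 of 8 passed the adjusted threshold, Txnip and Arrdc4, both higher, where 3.8% of all genes passed, 1.13% higher and 2.67% lower. At an unadjusted p under 0.05 there were 4 of 8, Mlxip and Mlxipl besides, all higher, against 21.6% of all genes in either direction and 10.4% higher. Txnip was chosen on this comparison, so its pass is not a test and nothing is read from these counts. With each array centred on its median, the genes called higher and lower went from 63 and 209 to 183 and 350 under I-BET151 and from 272 and 640 to 664 and 727 under JQ1. Both calls among the 8 were lost when any single array was left out with all genes kept, controls and I-BET151 arrays included. They were also lost with only CTRL and JQ1 in the fit. Without 1 array, the log2 change under JQ1 stayed between 0.52 and 0.54 for Txnip and between 0.54 and 0.65 for Arrdc4. The median log2 change was 0.17 under I-BET151 and 0.24 under JQ1, beside 0.00 and 0.02 over all genes. Both I-BET151 arrays lay above both controls for 5 of the 8 genes, against 21.5% of all genes, and below for 2, against 20.7%. For JQ1 the counts were 6 above, against 23.9%, and 0 below, against 21.0%. All 4 treated arrays were above both controls for the 3 alpha-arrestin and both Mondo factor genes and for none of the 3 thioredoxin genes, against 14.4% of all genes. Txnip, chosen by its JQ1 values, is in these medians and placements, so they are a description.

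**Figure D3:**
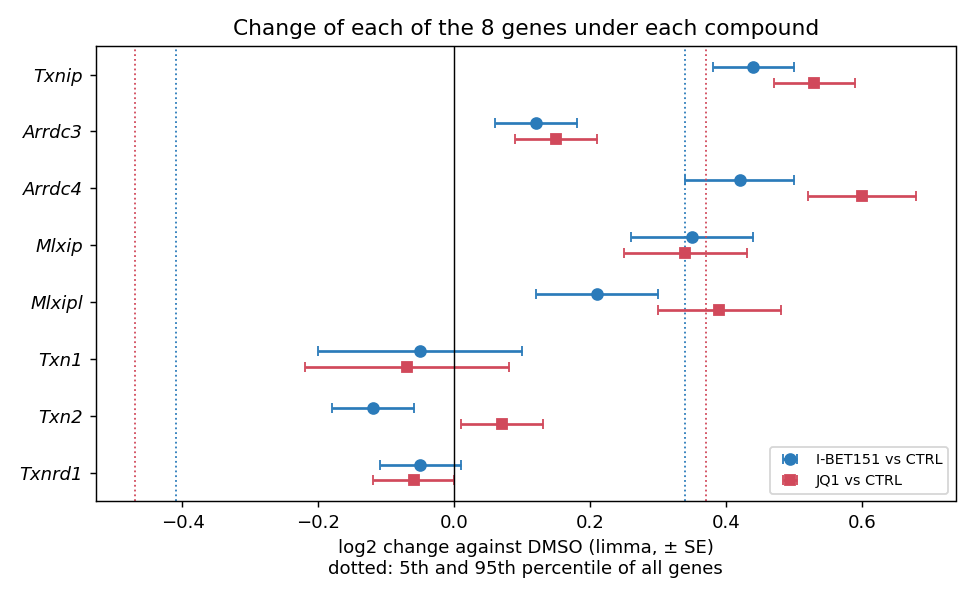
Log2 change against DMSO of each of the 8 genes under I-BET151 (circles) and JQ1 (squares), with the SE of the limma fit; dotted lines are the 5th and 95th percentiles of all genes, -0.41 and 0.34 for I-BET151 and -0.47 and 0.37 for JQ1. Txnip, which was chosen by its JQ1 value, and Arrdc4 lie to the right of the 95th percentile under both compounds. Mlxip does so under I-BET151 (0.35) and Mlxipl under JQ1 (0.39), and the thioredoxin genes lie near 0.

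The compounds were used at different doses, 500 nM for I-BET151 and 100 nM for JQ1, so a difference between them is one of compound and dose together. Values under JQ1 and I-BET151 differed by 0.09 ± 0.06 on the log2 scale for Txnip and 0.18 ± 0.08 for Arrdc4, both higher under JQ1. None of the 8 genes was called for JQ1 against I-BET151, and 0.0% of all genes were (limma). At an unadjusted p under 0.05 there was 1 of 8, Txn2 (log2 difference 0.19 ± 0.06, unadjusted p = 0.0253, adjusted p = 0.72), against 6.71% of all genes in either direction and 3.33% higher under JQ1. Both JQ1 arrays lay above both I-BET151 arrays for 4 of the 8 genes, Txnip, Arrdc4, Mlxipl and Txn2, against 14.6% of all genes. Txnip was chosen by its JQ1 values, so nothing is read from this count. The 95% intervals of the difference were 0.04 to 0.35 for Txn2, -0.13 to 0.19 for Arrdc3, -0.25 to 0.22 for Mlxip and -0.41 to 0.38 for Txn1. The missed threshold does not show that the compounds acted alike.

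The other genes of the pathway were described by 10 lists with 120 genes measured in all, some of them in more than 1 list. Of the 120, 1 fell under I-BET151, and none rose, against 1.13% of all genes called; 4 fell and 2 rose under JQ1, against 3.8%. At an unadjusted limma p under 0.05 there were 38 and 40 of the 120 under I-BET151 and JQ1, against 18.9% and 21.6% of all genes. By list, in the same order of compounds, these were 1 and 2 of 7 other arrestin genes, 4 and 3 of 11 ligase and adaptor genes, 1 and 1 of 5 Mlx partner genes, 8 and 8 of 19 carbohydrate-response targets, and 2 and 4 of 11 other regulators, partners and cargo of Txnip. They were 8 and 7 of 20 other thioredoxin-like genes, 3 and 3 of 13 thioredoxin client genes, 4 and 6 of 16 glutathione and glutaredoxin genes, 4 and 5 of 16 genes of Nrf2 and its targets, and 4 and 3 of 6 selenoprotein synthesis genes. The lists were chosen with earlier results known, and nothing particular to a list is read from its count. Among the 7 other arrestin genes, Arrb1, encoding beta-arrestin 1, fell under JQ1 from 412 and 388 on control arrays to 288 and 284 (adjusted p = 0.0343). It stood at 292 and 306 with I-BET151, below both controls but not called (adjusted p = 0.07). Arrdc5 was dim, at 12 to 14 on all 6 arrays, and was not called.

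Among 11 genes of NEDD4-family ligases, which alpha-arrestins recruit, and their adaptors, Hecw2 fell under JQ1, from 85 and 100 to 57 and 56 (adjusted p = 0.035), and stood at 59 and 61 with I-BET151 (adjusted p = 0.0701). Itch, the ligase that marks Txnip for degradation, named after its values were seen, measured 818 and 698 on control arrays, 805 and 806 with I-BET151 and 700 and 725 with JQ1, and was not called. Nedd4l, a ligase known for regulating sodium channels, had log2 changes of 0.23 ± 0.07 and 0.35 ± 0.07 that were not called (adjusted p = 0.171 and 0.0619). None of the 5 genes for Mlx and its other partners was called under I-BET151 or JQ1, and 1 in each had an unadjusted limma p under 0.05, where 18.9% and 21.6% of all genes had one. In that list Mxd1, a repressor that pairs with Max or Mlx, had log2 changes of 0.35 ± 0.08 and 0.30 ± 0.08 (adjusted p = 0.134 each), and Mga had 0.13 ± 0.09 and 0.06 ± 0.09.

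Of 19 measured targets of the carbohydrate response, Slc2a2 fell under both compounds and no gene rose. The median log2 changes were -0.01 and 0.05, but the values reached much further down, to -2.42 and -2.97, than up, to 0.22 and 0.44. The 5 lowest under each compound were Slc2a2, Scd1, Pklr, Elovl6 and Hk2. Slc2a2, which encodes the low-affinity glucose transporter GLUT2, measured 544 and 655 on control arrays, 99 and 125 with I-BET151, and 76 on both JQ1 arrays, 5.37-fold and 7.85-fold lower (adjusted p = 0.0306 and 0.0112). Hk2, a hexokinase gene, measured 234 and 217, then 148 and 150, then 176 and 150, and was not called (adjusted p = 0.0788 and 0.0775). Log2 changes were positive for 8 of the 19 genes under I-BET151 and for 11 under JQ1. Klf10, Scd1, Elovl6 and Pklr were named after their values were seen. Klf10, the highest of the list under JQ1, measured 303 and 283 on control arrays, 362 and 323 with I-BET151 and 409 and 386 with JQ1. Its log2 changes were 0.22 ± 0.09 and 0.44 ± 0.09, not called (limma adjusted p = 0.264 and 0.069). Scd1, encoding a fatty acid desaturase, measured 136 and 72 on control arrays, 29 and 40 with I-BET151 and 37 and 29 with JQ1, so all treated arrays were below both controls, which themselves differed widely. Its log2 changes were -1.54 ± 0.36 and -1.59 ± 0.36, not called (adjusted p = 0.131 and 0.0886). Elovl6, encoding a fatty acid elongase, measured 905 and 891, then 551 and 647, then 626 and 564, with log2 changes of -0.59 ± 0.10 and -0.60 ± 0.10, not called (adjusted p = 0.0871 and 0.0562). Pklr, the pyruvate kinase gene that is the classical ChREBP target in liver, measured 99 and 88 on control arrays, 49 and 60 with I-BET151 and 48 and 59 with JQ1, and was not called (adjusted p = 0.104 and 0.0667). Several genes of this list are abundant in liver, and the 6 liver markers had summed intensities of 4534 to 4756 in control, 2776 to 4188 in I-BET151 and 2804 to 4533 in JQ1 buds, with none called; their part in these values was not tested.

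Of 11 other regulators, partners and cargo of Txnip, none was called under I-BET151 or JQ1, and 2 and 4 had an unadjusted limma p under 0.05, against the same 18.9% and 21.6%. Foxo3, a forkhead factor gene, had log2 changes of 0.27 ± 0.08 under I-BET151 (adjusted p = 0.174) and 0.27 ± 0.08 under JQ1. Ddit4, whose product REDD1 binds Txnip protein, had -0.45 ± 0.15 under each (adjusted p = 0.214 and 0.185). Slc2a1, the glucose transporter that Txnip protein removes from the membrane, named after its values were seen, measured 975 and 923 on control arrays, 944 and 1033 with I-BET151 and 1050 and 1093 with JQ1, and was not called. Slc2a4, another glucose transporter gene named in the same way, measured 141 and 142, then 152 and 137, then 176 and 189. It had the highest log2 change of the list under JQ1, 0.37 ± 0.08, and was not called (limma adjusted p = 0.892 and 0.0822).

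Among 20 other thioredoxin-like genes, Nxn, encoding nucleoredoxin, rose under JQ1 from 294 and 301 to 415 and 409 (1.38-fold, adjusted p = 0.0368). It measured 368 and 397 with I-BET151 (adjusted p = 0.0884). Tmx4, a thioredoxin-related membrane protein gene, measured 426 and 415 on control arrays, 620 and 519 with I-BET151, and 646 and 605 with JQ1, not called (adjusted p = 0.135 and 0.0603). The median of the list was 0.00 under I-BET151 and -0.02 under JQ1, with 10 and 9 genes above 0.

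None of 13 genes for proteins that thioredoxin reduces or binds was called under I-BET151 or JQ1, and 3 in each had an unadjusted limma p under 0.05, against 18.9% and 21.6% of all genes. Apex1, a DNA repair enzyme and redox factor gene, had log2 changes of -0.33 ± 0.09 and -0.17 ± 0.09. Rrm1, the large subunit gene of ribonucleotide reductase, had -0.27 ± 0.08 and -0.28 ± 0.08. Of 16 glutathione and glutaredoxin genes and 16 genes of Nrf2 and its targets, 1 gene was called, and it stands in both lists. Slc7a11, the cystine transporter gene, fell under JQ1 (adjusted p = 0.0313), on a dim row of 21 and 23 on control arrays, 12 and 15 with I-BET151, and 11 on both JQ1 arrays. Gpx7, a glutathione peroxidase gene of the secretory pathway, measured 221 and 188, then 128 and 129, then 154 and 160 (adjusted p = 0.0624 and 0.108). Nqo1, a quinone reductase gene and standard Nrf2 target, measured 58 and 61, then 30 and 44, then 45 and 43 (adjusted p = 0.16 and 0.28).

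Of 6 genes for selenoprotein synthesis, on which Txnrd1 protein depends, Eefsec rose under JQ1. This elongation factor gene for selenocysteine measured 520 and 526 on control arrays, 640 and 634 with I-BET151, and 775 and 697 with JQ1 (1.41-fold, adjusted p = 0.0426). Under I-BET151 it was above both controls and not called (adjusted p = 0.148). Secisbp2, which encodes the protein that binds the selenocysteine insertion element, had log2 changes of 0.23 ± 0.07 and 0.15 ± 0.07, not called. The calls in these lists were those of Arrb1, Hecw2, Slc2a2, Nxn, Slc7a11 and Eefsec. They were likewise lost when any single array was left out with all genes kept. No gene of the array was then called against CTRL.

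**Figure D4:**
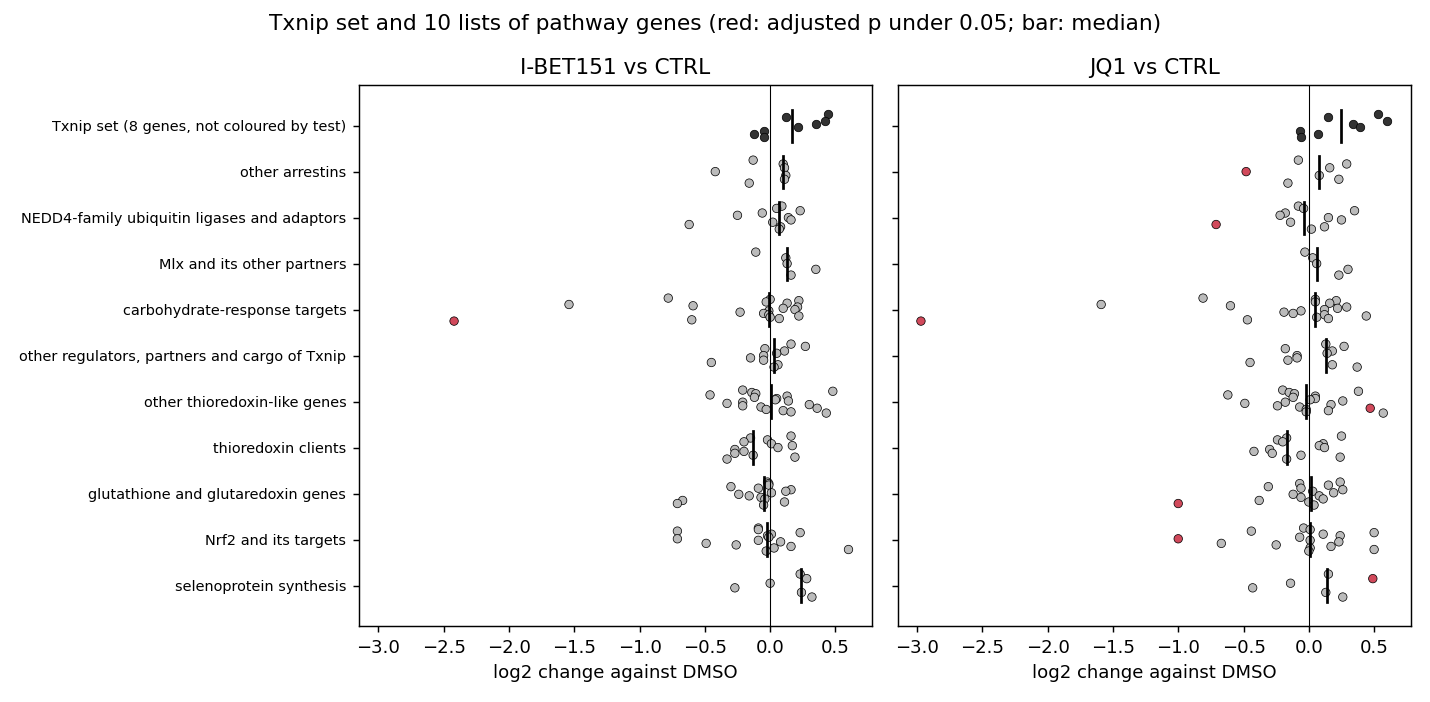
Log2 change against DMSO of the 8 genes and of each gene in 10 pathway lists, under I-BET151 and JQ1; red points passed an adjusted p under 0.05, bars are list medians, and the 8 genes are not coloured by test. Slc2a2 is the lowest point in both panels, at -2.42 and -2.97, and the medians of the lists lie between -0.17 and 0.23.

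Genes with a profile most like that of Txnip were sought by the root mean square difference over the 6 arrays between log2 profiles, each centred on its own mean. Among 17468 protein-coding genes ranked, the nearest were Lrpap1 (0.019), Pcyox1 (0.020), Pfkl (0.027), Itga3 (0.032) and Ttc5 (0.034), where Txnip itself varied by 0.232 around its mean. Pfkl encodes the liver type of the glycolytic enzyme phosphofructokinase, Lrpap1 a chaperone of lipoprotein receptors, and Itga3 an integrin subunit. Pfkl measured 378 on both control arrays, with means of 498 ± 28.3 under I-BET151 and 526.5 under JQ1. Arrdc4 ranked 25 in this order (0.053), Mlxip 711, Mlxipl 720 and Arrdc3 2539, and the thioredoxin genes between 7985 and 11481. For Arrdc3, whose profile varied by 0.071, the nearest were Ehmt1 (0.013), Lrrc8d, Jak1, Dpy19l3 and Asb14 (0.018). Asb14 was dim, at 15 and 16 on control arrays. These ranks are descriptions over 6 arrays in which many genes separate control from treated buds.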

How the data were processed

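The authors deposited 1 intensity per gene and array on a linear scale, and RMA is named, with no version, per the submitters' processing notes. The values are whole numbers from 5 upward. Not given in the sources used here are how probes were combined and why values were rounded. RMA makes the intensity distributions of arrays alike, and rounding coarsens dim genes. Of 24972 rows, 24014 had 1 symbol in the platform annotation and 958 were not listed there. For 4 symbols with several rows the brightest was kept, leaving 24010 genes, 23918 of them in RefSeq GRCm38.p6.

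From these, log2(intensity) was fitted with limma 3.58.1 in R 4.3.3 (lmFit, eBayes, 6 arrays, 3 groups; 3 residual and 1.76 prior degrees of freedom). P-values were adjusted by Benjamini-Hochberg over 24010 genes, and a gene was called under 0.05. "Rose" and "fell" mark called genes. Errors are SD with n = 2, or the SE of the fit. Its power was checked in 10 simulated draws of 24010 genes, 200 of them changed. The changed genes were drawn from those above the median control intensity, so the rates do not cover dim genes. The rates also depend on how many genes change, and the simulated number need not match that in the data. Of simulated log2 changes of 1, limma called 49.1% for I-BET151 against CTRL and 50.7% for JQ1 against CTRL. Of those of 0.5 it called 11% and 11.6%, with means of 2.3 and 3.4 false calls. A gene left uncalled may therefore still have changed by 0.5. The 8 genes, the 10 lists and the motifs were chosen with earlier results of these data known. Named genes were the 8, genes called in a list (up to 5), where under 2 were called the 2 with the smallest p under I-BET151, Hexim1, and the 5 nearest profiles; others are said to be named after their values were seen. With 2 arrays per group, their number limits the precision.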

Additional observations from a re-analysis of the deposited data

Results flagged for a closer look

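Txn2 stood on opposite sides of the controls under the compounds: both I-BET151 arrays (568 and 605) lay below both control arrays (634 and 639) and both JQ1 arrays (671 and 669) above them. Each placement taken singly held for 20.7% and 23.9% of all genes, and the share with both was not counted, so nothing is read from it. Against controls the log2 changes were small and not called. They were -0.12 under I-BET151 (95% interval -0.28 to 0.04) and 0.07 under JQ1 (95% interval -0.08 to 0.23). The log2 difference between JQ1 and I-BET151 was 0.19, which was not called (limma adjusted p = 0.72). Among 22 alternatives it ranged from 0.15 to 0.24 and was called in none.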

How the results depend on the processing

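Of the 8 genes, 0 were called under I-BET151; 2 were without genes below the median, and 1 without the dimmest 25% of genes, with each array centred on its median, with log2(intensity + 16) or with an intensity trend in the prior. Under JQ1, 2 were called; 4 were without genes below the median, and 0 with only the 2 groups compared. Without 1 array, 0 to 2 were called under I-BET151 and 0 to 4 under JQ1, where the upper values also leave out genes below the median. Of the 120 pathway genes, 1 was called under I-BET151 and 14, 7, 2, 5, 3, 5 and 0 were without genes below the median, without the dimmest 25%, with centred arrays, with log2(intensity + 16), with the trend, with a robust prior and with only the 2 groups compared. Under JQ1, 6 were called, and in the same order 23, 15, 14, 16, 13, 12 and 0. Without 1 array the ranges were 0 to 10 and 0 to 18. The cause of these shifts was not tested, apart from fewer genes or arrays where the alternative leaves them out.

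The labels give shared replicate numbers but no shared litter or day, and deviations of same-numbered arrays correlated at -0.016 to -0.0399. With the replicate block, 0 of the 8 genes were called under each compound and 0 of the pathway genes; with the block and without genes below the median, 2 and 4 of the 8 and 11 and 19 of the pathway genes.

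Signs turned only for small uncalled values. Txnrd1 under JQ1 went to 0.01 with centred arrays. Without 1 array, Txn1 ranged from -0.19 to 0.09 under I-BET151, -0.21 to 0.07 under JQ1 and -0.15 to 0.12 between the compounds; between the compounds, Mlxip ranged from -0.11 to 0.08, Txnrd1 from -0.06 to 0.04, Mga from -0.16 to 0.02, Foxo3 from -0.03 (-0.02 without I-BET151 1) to 0.04 and Ddit4 from -0.14 (-0.07 without JQ1 1) to 0.15. Dim rows such as Slc7a11 are limited by rounding.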
